A study of Caenorhabditis elegans with 2 samples.

Results

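The peaks described here are the places on the X chromosome, away from tRNA genes, where tagged Y56A3A.18 protein was recovered with DNA from whole Caenorhabditis elegans. They are the peaks of the authors' conservative list on X whose summit, the base of highest signal, lay more than 200 bp from every annotated tRNA gene. There were 206 such peaks, which is 12.2% of the 1687 peaks of the list. The X chromosome held 354 peaks in all, and the other 148 lay at tRNA genes. The autosomes held 1201 peaks away from tRNA genes, and these serve as the comparison. The conservative list is itself a selection, since 1687 of the 94653 entries ranked by the authors for both replicates (1.78%) are in it.

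DNA bound by the protein was sequenced after immunoprecipitation (ChIP-seq) from whole young adults at 63 hours, in 2 biological replicates that form 1 group, and both come from strain RW12265. In this strain the allele st12265, on chromosome III, is a CRISPR insertion that joins TY1, EGFP and 3xFLAG to Y56A3A.18 at the gene itself. The worms were synchronised as L1 larvae by starvation after bleaching, the chromatin was sonicated, the size range was 200 to 800 bp, and an anti-GFP antibody was used. A control experiment that the labels name was not analysed here. With 1 group of 2 replicates an exact permutation test over samples cannot pass 0.05, so none was run and the contrasts given are descriptions of places in the genome. The signal of a peak is the authors' strength of enrichment, on a scale not given in the sources used here. Whole worms were used, so strong recovery in few cells and weak recovery in many cannot be told apart. Sequencing depth is unknown, and the intervals on shares are exact (Clopper-Pearson) 95% binomial intervals that cover the counting of peaks only.

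Y56A3A.18, annotated as znf-593, encodes a C2H2 zinc finger protein. Its yeast relative, Bud20, helps to export the large ribosomal subunit precursor from the nucleus. The X chromosome has its own regulation in this species: in hermaphrodites a condensin-based dosage compensation complex binds both X chromosomes and lowers their transcription. The complex is recruited at rex sites (recruitment elements on X), many of which carry copies of a sequence motif called MEX (motif enriched on X), and then spreads to promoters. The protein SDC-2 recognises X and brings in the other subunits. The core letters of MEX used here are GCGCAGGG, searched on both strands.

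The 6 peaks with the highest pooled signal are shown first. Copies of the MEX core word, or of a word that differs from it by 1 letter (GCGAAGGG), lie close to the summit in all but the sixth. The fifth has only the variant. Each sequence is the plus strand of the RefSeq genome of build WBcel235 (ce11), 60 bases to each side of the summit, 5′ to 3′. Capitals mark the core word or the variant on either strand, so that CCCTGCGC is the core word and CCCTTCGC the variant read on the minus strand.
Peak between genes, nearest start W02H3.3 (chrX:11094142-11094262): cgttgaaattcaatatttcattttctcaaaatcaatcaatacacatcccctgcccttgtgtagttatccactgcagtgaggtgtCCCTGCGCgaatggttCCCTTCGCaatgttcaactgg
Peak upstream of nspc-17 (chrX:14525851-14525971): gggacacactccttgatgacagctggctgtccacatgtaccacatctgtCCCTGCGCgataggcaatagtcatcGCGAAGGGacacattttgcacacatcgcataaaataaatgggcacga
Peak between genes, nearest start F20B6.9 (chrX:4209228-4209348): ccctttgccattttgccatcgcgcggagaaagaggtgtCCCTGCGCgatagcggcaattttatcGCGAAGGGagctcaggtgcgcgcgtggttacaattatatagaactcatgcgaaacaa
Peak in mom-1 (chrX:6296475-6296595): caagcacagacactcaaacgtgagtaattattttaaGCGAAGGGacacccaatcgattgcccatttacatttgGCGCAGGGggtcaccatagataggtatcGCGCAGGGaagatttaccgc
Peak between genes, nearest start K02D3.1 (chrX:13700802-13700922): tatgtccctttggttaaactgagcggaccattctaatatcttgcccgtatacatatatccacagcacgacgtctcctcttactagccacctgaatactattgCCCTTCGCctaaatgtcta
Peak between genes, nearest start F55G7.5 (chrX:11937495-11937615): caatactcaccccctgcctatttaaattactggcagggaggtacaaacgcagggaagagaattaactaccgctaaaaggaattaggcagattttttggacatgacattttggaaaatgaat

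The core word occurred 15 times within 50 bp of the summit, in 13 of the 206 peaks. The copies in the other 9 peaks, outside the 6 strongest, are shown with 12 bases to each side, on the strand that reads GCGCAGGG (given after the coordinates), so that the letters around the word can be compared. Capitals mark the core word.
Copy in Y41G9A.17 (chrX:2997111-2997142, minus): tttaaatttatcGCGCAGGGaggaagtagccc
Copy upstream of ins-39 (chrX:1345044-1345075, plus): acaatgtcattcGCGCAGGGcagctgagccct
Copy upstream of xol-1 (chrX:8036389-8036420, minus): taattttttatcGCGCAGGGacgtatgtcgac
Copy upstream of xol-1 (chrX:8036423-8036454, plus): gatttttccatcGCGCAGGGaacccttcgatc
Copy near gtr-1 (chrX:806662-806693, plus): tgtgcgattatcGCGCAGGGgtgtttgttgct
Copy near T24D8.6 (chrX:2364887-2364918, minus): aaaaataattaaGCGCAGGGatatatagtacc
Copy near dpy-23 (chrX:4395603-4395634, plus): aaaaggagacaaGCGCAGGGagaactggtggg
Copy in the pseudogene WBGene00020829 (chrX:1837880-1837911, plus): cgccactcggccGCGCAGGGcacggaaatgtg
Copy near col-185 (chrX:13514546-13514577, plus): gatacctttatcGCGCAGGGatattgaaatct
Copy near F20B6.9 (chrX:4208727-4208758, plus): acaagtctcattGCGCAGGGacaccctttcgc

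The base directly before the core word was C in 11 of the 15 copies, the base before that was T in 12, and the base directly after the word was A in 11. The peaks in mom-1 and upstream of xol-1 held 2 copies each. Finding the letters describes the sequence and does not show that a protein binds there.

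The 13 peaks with the core word were 6.31% of the 206 (3.40 to 10.5%). The same word was found at 1 of the 1201 autosomal peaks away from tRNA genes (0.0833%) and at 0 of the 148 X peaks at tRNA genes. As a background, 68 of 175435 windows of the same 101-bp length tiled along X (0.0388%) and 215 of 817362 autosomal windows (0.0263%) held it. The peaks with the word had a median signal of 202.7 (lowest 88.9, highest 396.6), with medians of 148.8 in replicate 1 and 64.6 in replicate 2. The 173 peaks without the word, even allowing 1 mismatch, had a median of 67.3, with medians of 37.2 in replicate 1 and 32.4 in replicate 2. All 13 peaks with the core word were in the thresholded list of replicate 1 and 11 of them in that of replicate 2. The other 2, near col-185 and F20B6.9, had replicate 2 values of 32.1 and 31.7, at the level of the peaks without the word. Of all 206 peaks, 43.2% and 36.4% were in these lists. The peaks with the word had higher signals, so their presence in the lists is not separate from signal. Of the 22 peaks with a signal of at least 150, 8 held the core word (36.4%), against 5 of the 184 peaks below 150 (2.72%). With 1 mismatch allowed, 33 peaks held a copy (16.0%), among them 17 of the 22 strong ones (77.3%), against 72 of the 1201 autosomal peaks and 8 of the 59 autosomal peaks of at least 150 (13.6%), and 1.34% of X windows and 1.29% of autosomal windows in an evenly spaced sample of them. The division at 150 was chosen after the signal values were seen and is a description only.

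**Figure D1:**
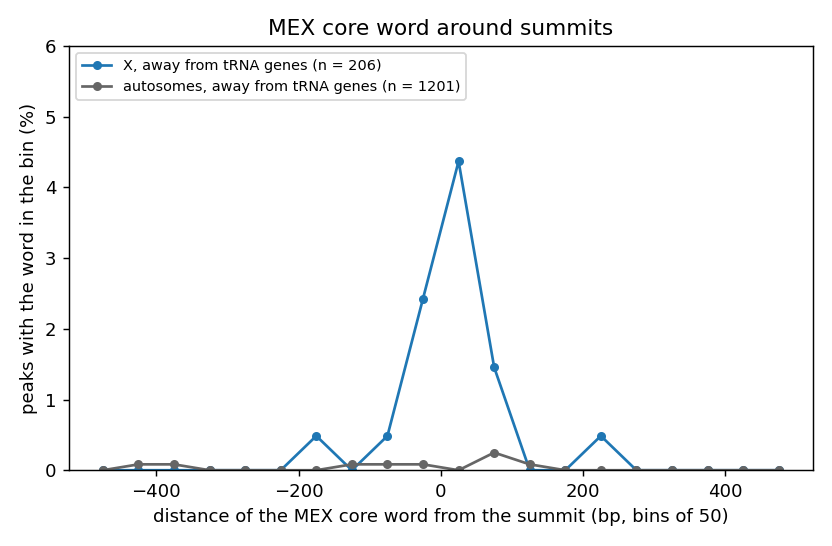
Share of peaks (y axis, %) with a MEX core word whose position falls in each 50-bp bin (x axis, distance from the summit in bp), for the 206 X peaks and the 1201 autosomal peaks away from tRNA genes. The highest share in X peaks, 4.37%, is in the bin that starts at the summit.

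The word lay near the summit, not spread over the surrounding sequence. Of the 206 peaks, 5 had a copy in the 50 bp before the summit, 9 in the 50 bp after it and 3 in the next 50 bp after that. On the whole of X the core word occurred 81 times (4.57 per Mb), so 15 copies (18.5%) lay in the windows of these peaks. Of the 81 copies, 45 lay inside an entry of the authors' ranked list before thresholding. The median signal of these entries was 52.1, against 18.7 for all ranked entries on X. That list has 94653 entries, and the share of X bases inside them was not computed, so the 45 have no background. They include the copies at the 206 peaks, so the higher median is not separate from the values given above.

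The variant word GCGAAGGG was found by ranking words of 8 letters on the left part of X (117 peaks) and then counting them on the right part (89 peaks), and it was singled out after its counts were seen. The core word was at 10 left peaks (8.55%) and 3 right ones (3.37%). The word CGCGCAGG, which overlaps it, was at 7 left peaks (5.98%) and 7 right ones (7.87%). The variant was at 6 of the 117 left peaks (5.13%) and 7 of the 89 right ones (7.87%). Of the right ones, 2 lie 1204 bp apart near hlh-29. In their windows 47.0% and 45.5% of the 36-base words are unique in the genome. In all the variant stood at 13 of the 206 peaks (6.31%), at 0 of the 1201 autosomal peaks and in 0.0730% of X windows. Among the 171 peaks whose windows hold only unique 36-base words, 11 had the variant (6.43%). Of the 22 strong peaks, 11 held it. Either word was at 21 peaks (10.2%, 6.42 to 15.2%), both at 5, and 14 of the 22 strong peaks (63.6%) had at least one. The other 8 strong peaks had neither within 50 bp of the summit, as at the sixth strongest. The median signal was 226.0 with either word and 68.6 without.

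**Figure D2:**
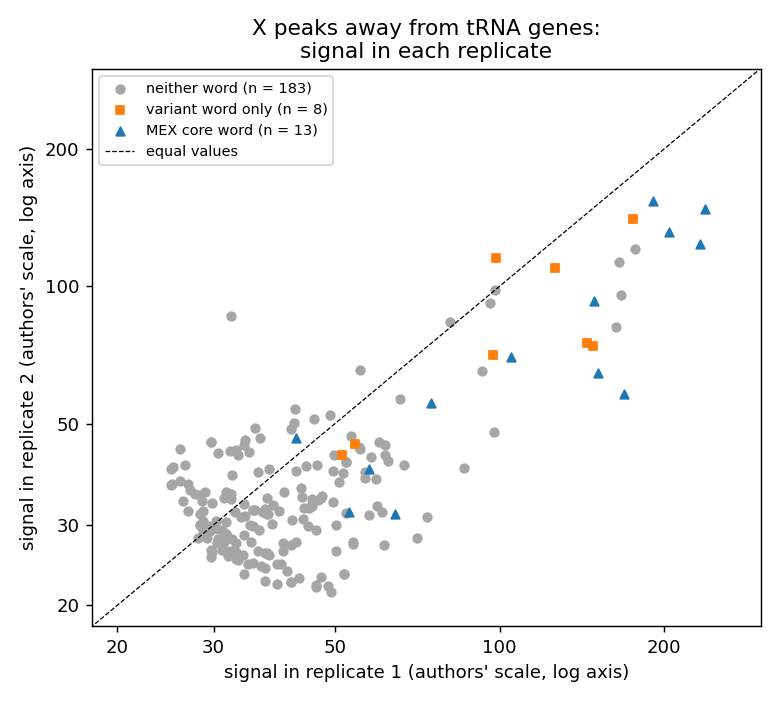
Signal of each of 204 X peaks away from tRNA genes in replicate 1 (x axis) and replicate 2 (y axis), both on log axes in the authors' units, by the word near the summit. Peaks with the core word or the variant lie mostly in the upper right, and most points lie below the line of equal values.

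How far the replicates gave the same values was asked next. Each replicate's signal was read from its own ranked list, where 204 of the 206 peaks have an entry in both. Replicate 1 was higher in 150 of them, and 18 differed by more than 2-fold. The log2 signals correlated across these 204 peaks with a Spearman rho of 0.40 and a Pearson r of 0.74. Without the 20 strongest they were 0.18 and 0.28 over 184 peaks. The second pair of values covers a narrower range of signal, so these are not compared. All peaks share the same pair of libraries, so these correlations are descriptions.

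Of the 206 peaks, 89 (43.2%) overlapped a peak of replicate 1's own thresholded list, where 41.6% of all conservative peaks do. For replicate 2 the number was 75 (36.4%), where 38.3% of all conservative peaks do. Either list held 112 (54.4%, 47.3 to 61.3%), and 53.9% of autosomal peaks away from tRNA genes. Both replicates' lists held 52 (25.2%), and neither held 94 (45.6%), against 21.7% and 46.1% of autosomal peaks away from tRNA genes. The shares in each single list are near those over all conservative peaks. The other shares were set beside the autosomal peaks only, and are near theirs. All 22 peaks with a signal of at least 150 were in both lists, whereas of the 184 weaker ones 94 were in neither. The pooled signal and both lists come from the same 2 replicates, so this is a description and not independent support.

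The 206 peaks had a median pooled signal of 70.6, close to the 69.5 of the autosomal peaks away from tRNA genes, but a longer upper end. The lower and upper quartiles were 58.7 and 92.3, and the lowest and highest were 3.97 and 396.6. At 7 peaks, with pooled signals from 3.97 to 25.1, the pooled value was below both replicate values. Of these, 6 have another summit within 300 bp, and such neighbours share a replicate entry. The difference of median log2 signal between the X and autosomal peaks was 0.02, with 0.07 in replicate 1 and -0.04 in replicate 2, which is 0.01 ± 0.07 (SD, n = 2). At the 90th percentile the difference was 0.49, with 0.55 in replicate 1 and 0.16 in replicate 2 (0.36 ± 0.27, SD, n = 2). A signal of at least 150 was found at 22 X peaks (10.7%) and 59 autosomal peaks (4.91%), and one of at least 200 at 17 (8.25%) and 24 (2.00%). X peaks at tRNA genes had a higher median, 83.0, and 6.76% of at least 150. Of the 20 strongest peaks of the whole list, 8 (40.0%) were X peaks away from tRNA genes, which make up 12.2% of the list. Of the 200 strongest, 29 (14.5%) were, near that share. The same rule was also applied to the entries of each replicate's own list, in place of the 206 peaks. X entries away from tRNA genes were then 12 of the 20 strongest for replicate 1 and 9 of 20 for replicate 2. Such entries make up 14.1% and 11.0% of those lists.

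**Figure D3:**
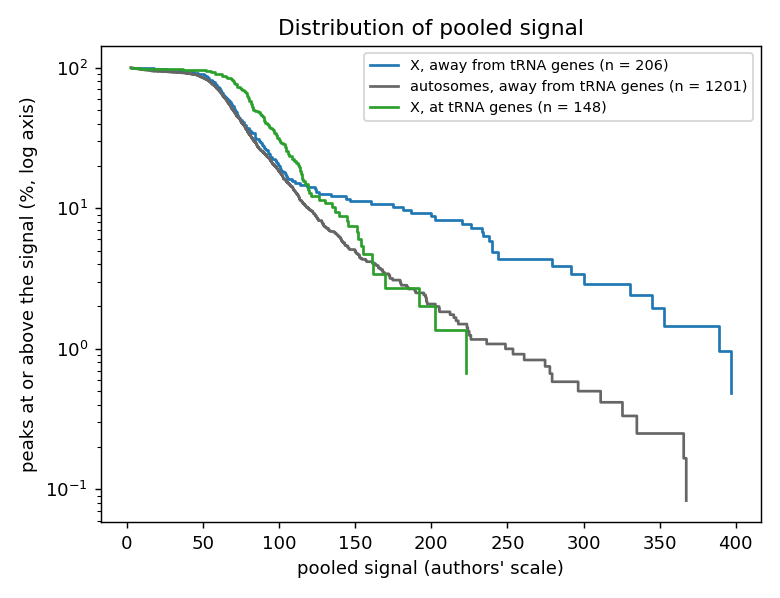
Share of peaks (y axis, %, log axis) at or above each pooled signal (x axis, authors' scale) for X peaks away from tRNA genes, autosomal peaks away from tRNA genes and X peaks at tRNA genes. The X peaks away from tRNA genes keep 10.7% of their number at 150, where the autosomal peaks keep 4.91%.

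The strongest peaks mostly lay between genes. The strongest of all, at chrX:11094065-11094347 between genes, had a pooled signal of 396.6, with 232.8 in replicate 1 and 124.0 in replicate 2. The nearest start was that of W02H3.3, 3984 bp away on the downstream side. The second, at chrX:14525756-14526062, reached 388.9, with 237.3 and 148.0. It lay 730 bp upstream of nspc-17, a member of a nematode-specific peptide family.

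The third, at chrX:4209188-4209383, had a pooled signal of 352.9, with 191.1 and 154.1 in the replicates. The fourth, at chrX:6296462-6296698, had 345.0, with 204.1 and 131.7, and lay in an intron of mom-1, whose product acts in the secretion of Wnt proteins. In both the replicate 1 value was higher, as in 20 of the 22 strong peaks. Over those 22, replicate 1 ran from 81.2 to 237.3 and replicate 2 from 58.0 to 154.1.

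The fifth, at chrX:13700736-13700981, had 330.4, with 175.1 and 140.4. The sixth, seventh and eighth had pooled signals of 299.98, 292.0 and 279.3, and all lay between genes. Within 50 bp of the summit they lacked the exact core word and had a copy with 1 mismatch. At the eighth, an exact copy began 65 bp past the summit. The ninth, at chrX:5429525-5429628, lay in a coding exon of pks-1, a polyketide synthase gene, and had 243.7, with 126.4 and 109.6. An exact core word began 61 bp past its summit, outside the 50-bp limit.

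The tenth, at chrX:2997010-2997145 in an intron of Y41G9A.17, had 240.0 but the replicates were far apart, at 168.8 and 58.0. The eleventh, 625 bp upstream of ins-39, which encodes an insulin-like peptide, had 239.6, with 148.8 and 93.0. The twelfth, at chrX:1375159-1375250, had 238.1, yet all 101 bases of its summit window were masked as repeat and none of its 36-base words was unique in the genome.

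The thirteenth to sixteenth had pooled signals of 233.9, 233.3, 226.0 and 220.1. The seventeenth, at chrX:8036303-8036531, had 202.7, with 151.1 and 64.6, and stands just outside the tRNA limit, 254 bp from a tRNA gene. It lay 4882 bp upstream of xol-1, the gene that switches sexual fate and dosage compensation. The eighteenth to twentieth had 199.9, 186.4 and 181.5, and the nineteenth lay 30 bp upstream of C53B7.8, a small nucleolar RNA. Of the 22 strong peaks 17 lay between genes, 2 in promoter windows, 2 in introns and 1 in a coding exon.

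Where the peaks fall relative to genes was asked with a promoter window that began 1000 bp before the start of a protein-coding gene and ended 500 bp past it. In such windows lay 71 peaks (34.5%, 28.0 to 41.4%), against 21.9% of X bases, 46.5% of autosomal peaks away from tRNA genes and 27.4% of autosomal bases. Between genes lay 69 (33.5%, 27.1 to 40.4%), against 29.2% of X bases and 19.3% of autosomal peaks (17.1 to 21.7%). Introns held 26 (12.6%), coding exons 23 (11.2%), noncoding genes or pseudogenes 12 (5.83%) and untranslated exons 5 (2.43%). The interval for the X peaks lay below the autosomal share for promoter windows and above it for the space between genes. X itself has fewer bases in promoter windows and more between genes than the autosomes. Peaks between genes had a median signal of 88.9 and a 90th percentile of 234.8, against 72.9 and 118.7 for autosomal peaks between genes. Promoter peaks on X had a median of 70.3, intron peaks 65.9 and coding exon peaks 58.0.

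**Figure D4:**
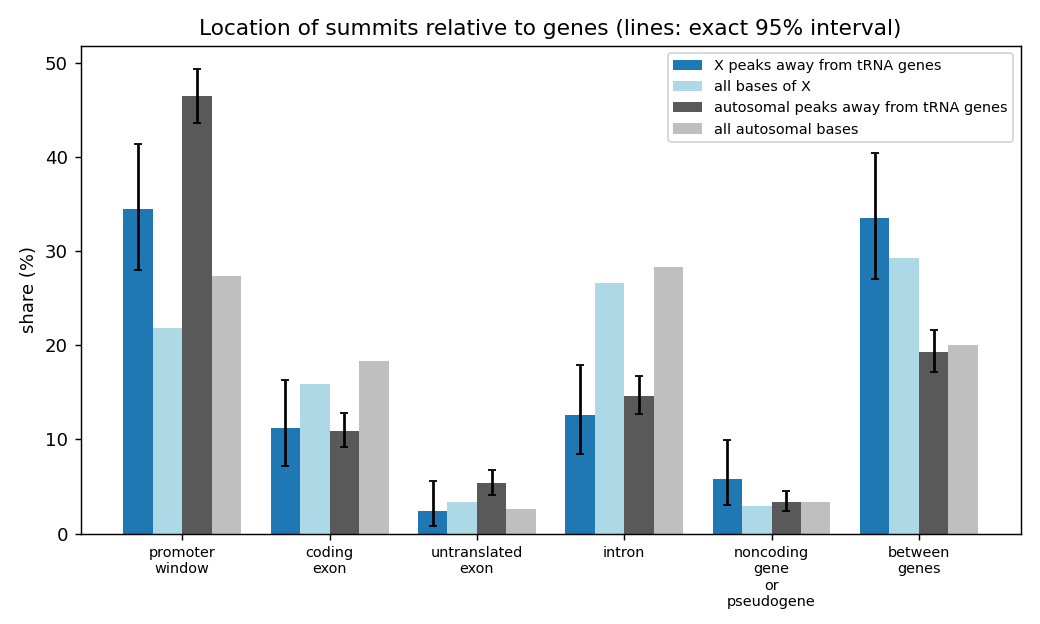
Share (y axis, %) of X and autosomal peaks away from tRNA genes, and of all bases of X and of the autosomes, in each class of place relative to genes (x axis). Lines are exact 95% intervals. Promoter windows hold 34.5% of the X peaks and 46.5% of the autosomal peaks.

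The nearest gene start was a median of 1652 bp from the summit, against 873 bp for autosomal peaks and 1929 bp for X bases. The 22 strong peaks had a median of 2612.5 bp, none within 500 bp and 14 (63.6%) more than 2000 bp away. Autosomal peaks of at least 150 had a median of 748 bp. Of the 206 peaks, 92 lay upstream of the nearest start and 114 downstream of it, but within 500 bp it was 40 upstream and 14 downstream.

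A summit lay in the promoter window of 73 of the 2731 protein-coding genes on X (2.67%, 2.10 to 3.35%), where 3.49% of all protein-coding genes and 3.62% of the autosomal ones had a summit away from tRNA genes there. These 73 genes share 66 peaks. The summit was upstream of the start in 60 and within the first 500 bp downstream in 13, with a median of -241 bp. The genes with the strongest peaks were nspc-17 and ins-39, above. Next was serp-1.1 (signal 144.1, with 97.5 and 47.9 in the replicates), 337 bp upstream. Then came T13C5.6 (124.0, with 65.9 and 56.6) and puf-9, an RNA-binding protein of the Pumilio family (105.5, with 58.2 and 42.3). Replicate 1 was higher at each of these.

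A shared peak between the divergent genes ile-2, which encodes a cargo lectin of the secretory pathway, and trap-2, a subunit of the translocon-associated complex, had 102.7, with 56.7 and 37.9. The peak upstream of kin-29, a kinase of the salt-inducible family, had 100.8, with 55.3 and 44.5. That of hst-2, a heparan sulfate sulfotransferase, had 100.4, with 55.5 and 44.0. Those of hsp-3, an endoplasmic reticulum chaperone, and of gob-1, a trehalose phosphatase, had 98.0 (62.5 and 41.4) and 93.8 (35.7 and 48.8). The replicates differed by less than 2-fold at all of these genes except serp-1.1. The signal at sdc-2, described next, was 99.6, and the genes after these 12 had signals from 40.1 to 92.6.

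Genes of the dosage compensation and sex signal lists were looked up next. Among all protein-coding genes, 3.49% had a summit away from tRNA genes in the promoter window. These lists are too short to set against that share. Of 10 genes of the dosage compensation machinery, 1 had a summit in its promoter window, sdc-2, whose product recognises X and recruits the complex. Its peak, 408 bp upstream of the start, had a signal of 99.6, with 67.0 in replicate 1 and 40.5 in replicate 2. The peak was in replicate 1's thresholded list but not in that of replicate 2. No copy of the core word lay within 50 bp of its summit, even with 1 mismatch allowed. The other gene of the list on X, sdc-1, had its nearest X peak away from tRNA genes 184306 bp away. Of 7 sex signal genes found in the annotation, 0 had a summit in the window. Of the 4 on X, xol-1 had the nearest X peak away from tRNA genes, the peak of signal 202.7 that lies 4882 bp upstream. For ceh-39, fox-1 and sex-1 the nearest ones lay 18299, 57752 and 65061 bp away.

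Among noncoding genes within 200 bp of a summit, the strongest was C53B7.8, above. Then came C14F11.14 (124.0), which shares its peak with T13C5.6, tts-1, a long noncoding RNA (113.5), and the pair W06B11.7 and W06B11.9 (105.5), which share the peak of puf-9. The other 7 of the 12 strongest ran from 82.4 to 92.7. Small nucleolar RNA genes were within 200 bp of 2 peaks (0.971%), with 0.101% of X bases as near to one, while 72 of the 1201 autosomal peaks were. Small nuclear RNA genes, of which X has 3, were near 1 peak, with 0.00836% of X bases as near, against 38 autosomal peaks (3.16%). The 74 microRNA genes on X were near 0 peaks, with 0.182% of X bases as near and 4 autosomal peaks (0.333%), so 0 is close to the background. Unclassified noncoding RNA genes were within 200 bp of 28 peaks (13.6%), with 6.24% of X bases and 12.4% of autosomal peaks.

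Where along X the peaks lie was asked last. The peaks ran from 7683 to 17633462 of the 17718942 bases. Over 10 equal parts of X, left to right, they numbered 23, 30, 23, 28, 13, 13, 17, 20, 20 and 19. The X peaks at tRNA genes numbered 3, 9, 10, 12, 27, 22, 16, 27, 10 and 12 over the same parts. The peaks away from tRNA genes were thus most numerous in the left 4 parts and fewest in the fifth and sixth, where those at tRNA genes were many. Gene starts per part ran from 199 to 327 and the strong peaks were spread over all 10 parts, with 1 to 5 in each.

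The peaks were spaced at 11.6 per Mb, with a median distance to the next summit of 43073 bp (95% interval from the order of the gaps, 30751 to 58336). The autosomes ran from 11.4 per Mb on V to 18.4 on III, with median distances from 26133 to 39851.5 bp. X was thus among the sparser chromosomes, beside V. The largest gap on X was 543507 bp, from 8718321 to 9261828, and 26 gaps (12.7%) exceeded 200000 bp. At the other end, 30 gaps (14.6%) were at most 1000 bp and 62 (30.2%) at most 10000 bp. Of the short gaps, 10 were of 199 to 224 bp, and in all 10 both summits share an entry of at least 1 replicate's list. With each such pair joined, 196 peaks remained, with 19 gaps (9.74%) of at most 1000 bp, 52 (26.7%) of at most 10000 bp and a median of 49893 bp. The 22 strong peaks were apart from each other by a median of 843353 bp, with gaps from 14359 to 1628340 bp.

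**Figure D5:**
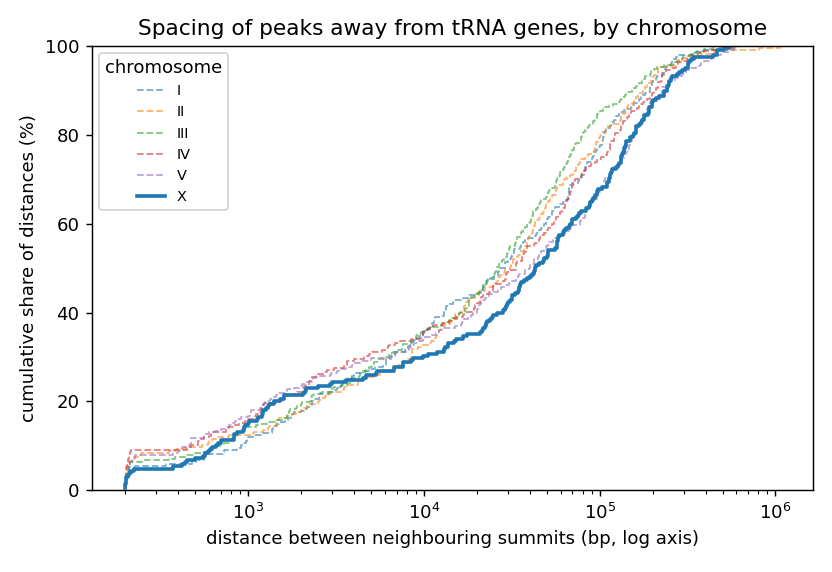
Cumulative share (y axis, %) of distances between neighbouring summits (x axis, bp, log axis) of peaks away from tRNA genes on each chromosome. X is the heavy line. Its median of 43073 bp is the longest, while at 1000 bp its share of 14.6% lies among those of the autosomes.

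Taking peaks within 10000 bp of each other as one group, 112 peaks stood alone and 94 fell into groups of 2 to 7. Both groups of 7 lie at genes of the yolk proteins, the vitellogenins that the intestine of adult hermaphrodites makes. One ran from 3398927 to 3409280 over vit-5, unc-78 and cht-1, with a highest signal of 99.1. The other ran from 5101131 to 5106659 over vit-2 and C42D8.9, with a highest of 133.8. That highest peak had 32.3 in replicate 1 and 86.0 in replicate 2 and was not in replicate 1's thresholded list. With close pairs joined, each of these groups held 6. Inside vit-2 lay 5 peaks and within 1000 bp of it 7, with signals of 40.1 to 133.8. Inside vit-5 lay 4, with 6 within 1000 bp (64.5 to 99.1). Summit windows in which all 36-base words are unique numbered 4 of the 7 at vit-2 and 4 of the 6 at vit-5.

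The other yolk genes on X had fewer: vit-4 had 1 inside and 2 within 1000 bp (58.7 and 63.8), vit-1 0 and 1 (100.9), and vit-3 0 and 1 (95.2). The remaining groups are named mostly by the nearest gene starts. Groups of 5 lay at puf-9 (highest 105.5) and at cut-5 and R07E3.4 (72.5), the latter of 3 with close pairs joined. Groups of 4 lay at gpd-2, gpd-3 and mai-1 (75.3), of which the first pair encode a glycolytic enzyme, at hsp-3 (98.0, 3 when joined), at ets-4 and ttr-35 (104.3) and inside C30E1.9, a noncoding RNA gene (78.1). None of the groups of 4 or more held a peak of at least 150, and 19 of the 22 strong peaks had no neighbour within 10000 bp.

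The sequence composition of the windows also differs from that of X. The median GC content of the 206 summit windows was 46.5%, against 34.7% for X windows, 44.6% for autosomal peaks and 49.5% for X peaks at tRNA genes. On average 17.8% of a window was masked as repeat, against 30.6% of X, 20.8% for autosomal peaks and 13.6% for X peaks at tRNA genes. All 36-base words were unique in the genome in 171 windows (83.0%), 18 of the 20 strongest among them, and 3 windows had none. Among the 171, 13 held the core word (7.60%). Peaks were 300 bp wide in 179 cases, and the 20 strongest were narrower or near that width, from 78 to 307 bp. The nearest distances to a tRNA gene among the 206 were 254 bp (signal 202.7) and 766 bp (33.1), and the peaks left out nearest to the limit lay at 159, 165 and 180 bp, with signals of 5.43, 2.45 and 8.50.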

How the data were processed

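ChIP-seq of tagged Y56A3A.18 was carried out in 2 biological replicates, per the labels. The deposited lists give the authors' signal per peak (signal, never negative, exact scale not given in the sources used here) and, in the ranked lists, the authors' −log10 of the IDR (irreproducible discovery rate), a measure of how far the rank of a peak repeats. Peaks were called per replicate and on both together, on ce11 per the file headers. Aligner and peak caller: not given in the sources used here. A control experiment named in the labels was not analysed here. No read counts were used, so depth is unknown.

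Computed here, with Python 3.11.15, numpy 2.4.6, pandas 2.3.3 and scipy 1.17.1: distances to genes of Ensembl release 115 (WBcel235, WormBase genes), windows of 101 bp around summits, words and their shares, gaps, and exact 95% binomial intervals. Coordinates are 1-based. Each replicate's value came from its own ranked list, at the nearest overlapping summit. The word counts were tested on simulated data. Alternatives were the part of the list at or below its median IDR, each replicate's own list, another promoter window and 1 mismatch. Named items are the 20 strongest peaks, the 12 protein-coding and 12 noncoding genes with the strongest peak, and genes of the dosage compensation and sex signal lists with a summit in the window, beside the nearest summits of the list genes on X. The yolk genes and the groups of peaks were named after their values were seen. Members and lists were chosen with earlier results of these data known.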

Additional observations from a re-analysis of the deposited data

Results flagged for a closer look

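Signal outside the peaks described was found in the authors' ranked list of both replicates. On X, 23 entries away from tRNA genes passed the IDR threshold there (−log10 IDR of at least 2) but are not in the conservative list, out of 110 such entries in all. Their signal ran from 15.5 to 1577.75 with a median of 114.5, and 4 exceeded the strongest of the 206 peaks, the highest at chrX:15810950-15811165. Of the 23, 22 had no gene within 200 bp, the median share of masked bases was 100%, and 0 held the core word. The step that left them out is not stated in the sources used here.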

How the results depend on the processing

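Of 57 alternative values, 37 stayed within limits set on the value in the report and 20 moved past them. The limits were 1.5 times for the number of peaks, 1 SD between replicates for signal and its difference, and the 95% interval for shares and spacing; such an interval is wide for the core word (3.40 to 10.5%). With the part of the list at or below its median IDR, 100 of the 206 peaks were left, the median signal was 93.0, 44.0% lay between genes, 87.0% overlapped a replicate's own list, the median spacing was 115672 bp and 13.0% held the core word. With 1 replicate's own list in place of the conservative one, the number of peaks ran from 83 to 115, the median signal from 45.0 to 51.4, the promoter share from 20.5 to 27.8%, the share between genes from 46.1 to 49.4%, the median spacing from 71174.5 to 124514 bp and the share with the core word from 11.3 to 13.3%. The promoter share was 21.4% with a window from 500 bp before the start to 200 bp past it, and 16.0% of peaks held the core word with 1 mismatch. These lists hold fewer peaks and the narrower window fewer bases by construction; otherwise the cause was not tested. Added after seeing the data, joining close summits gave 196 peaks and a median spacing of 49893 bp, the core word or its variant was at 10.2% of peaks and the core word at 7.60% of peaks with unique windows. No paired analysis was possible because there is 1 group. Of the 206 peaks, 94 were in neither replicate's own list, which limits statements on single weak peaks.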
